A study of Mus musculus with 12 samples.

Results

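The genes described here are the 8 rows of the count table that carry the symbols of major histocompatibility complex (MHC) class II presentation: H2-Aa, H2-Ab1, H2-Eb1, Cd74, H2-DMa, H2-DMb1, H2-DMb2 and Ciita. They were found by symbol among 24781 rows, and the list was set with earlier results of these data known. Of the 8, 7 were among the 9580 genes with a mean above 1 normalised molecule that entered the test. Each library was made from 100 CD45+CD11b+F4/80high cells, a gate for tumour-associated macrophages (TAMs), sorted on day 7 from MC38 tumours, a colon adenocarcinoma line grown in the skin of wild-type (WT) mice. There were 6 libraries from mice injected with picrotoxin, a blocker of the ionotropic GABA receptor, and 6 from mice injected with DMSO, its solvent. According to the reporting summary of the study the WT mice were C57BL/6J or C57BL/6N, and mice were of both sexes and 2 to 5 months old. Both groups carried the tumour and received repeated injections. The study states that mice were matched for age and sex and allocated to groups at random. How the 2 strains fell between the groups is not given in the sources used here, and no untreated or tumour-free animal was used here. The methods state 1 library per mouse, but a figure legend counts fewer mice than libraries. If mice were shared, the p-values below understate the error.

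Class II molecules display peptides from endosomes to CD4+ T cells. The α and β chains pair in the endoplasmic reticulum with the invariant chain, which fills the groove and steers the complex to endosomes, where proteases cut it down and the DM heterodimer exchanges the remaining fragment for peptide. The transactivator CIITA switches the whole group on, docking on factors (RFX, CREB and NF-Y) already bound to the X and Y boxes of class II promoters. In macrophages its own transcription is driven by interferon-γ through JAK kinases and IRF1, whereas dendritic cells and B cells use other promoters and express class II without it.

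The promoter sequences below show where such boxes were found in some of the members, and other members had no match or no entry. They are shown 5′ to 3′ on the strand of the gene, as 60 bases upstream of or around the transcription start in RefSeq on GRCm38.p6. Capitals mark the Y box (TGATTGG), an X box core (AACNGATG) or a cyclic AMP response element (TGACGTCA). The X box letters were written after these promoters had been read, so their presence in them, alone or paired with a Y box, is no finding.
H2-DMb2 (chr17:34145112-34145171, plus strand): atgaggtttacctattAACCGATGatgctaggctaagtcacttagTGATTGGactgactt
H2-DMb1 (chr17:34153083-34153142, plus strand): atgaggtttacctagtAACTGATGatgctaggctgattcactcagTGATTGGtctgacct
H2-Aa (chr17:34287859-34287918, minus strand): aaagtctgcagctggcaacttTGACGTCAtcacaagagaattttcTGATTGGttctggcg
H2-Eb1 (chr17:34305761-34305820, plus strand): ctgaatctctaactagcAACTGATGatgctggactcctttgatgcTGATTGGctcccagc

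The motifs were searched on both strands in the whole RefSeq promoter windows of 300 bases from which these stretches were taken. Of 32851 such windows in this genome, 7.82% held the Y box letters, 2.32% the X box letters and 1.79% the response element. An X box 15 to 30 bases before a Y box on one strand was found in 5 windows, or 0.0152%, and these belonged to BC051142, H2-DMb1, H2-DMb2, H2-Eb1 and H2-Eb2. The gap was 21 bases in H2-DMb1 and H2-DMb2 and 20 bases in H2-Eb1. Neither window of H2-DMa held any of the 3 motifs. H2-Ab1, Cd74 and Ciita had no entry in the promoter table.

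H2-Aa, the α chain of I-A, lies on the minus strand at chr17:34282744-34287823 (GENCODE, GRCm38/mm10) between H2-Ab1, its β chain partner at chr17:34257689-34269419, and H2-Eb1, the β chain of I-E, at chr17:34305867-34316674. The DM genes lie in the same region, H2-DMa at chr17:34119541-34139101, H2-DMb2 at chr17:34143307-34151555 and H2-DMb1 at chr17:34153072-34160230. Ciita lies at chr16:10480059-10528418. All are protein-coding genes, and reads were counted per gene symbol, so exons and introns cannot be told apart.

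Library totals ran from 201697 to 309617 molecules. Together the members took 0.794% ± 0.225 (SD, n = 6) of the molecules of a DMSO library and 0.932% ± 0.152 (SD, n = 6) of those of a picrotoxin library. The lowest DMSO library held 0.522%, the median was 0.760% and the highest held 1.13%. In picrotoxin libraries the lowest was 0.715%, the median 0.919% and the highest 1.11%, so the groups overlapped and the difference of 0.138 percentage points was smaller than the SD of either. Without DMSO replicate 3 it was 0.0836 percentage points. In bulk libraries, fewer cells with class II and less class II RNA per cell cannot be told apart. Cd74, the invariant chain, accounted for 35.5 to 40.9% of member molecules across the 12 libraries, H2-Aa for 18.7 to 22.2%, H2-Ab1 for 15.3 to 18.6% and H2-Eb1 for 12.4 to 16.2%. The transactivator Ciita took 0.361 to 0.766%. These are shares of counted molecules and are not scaled to transcript length.

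To ask whether blocking the GABA receptor altered class II expression in TAMs, picrotoxin was compared with DMSO by the quasi-likelihood test of edgeR, with Benjamini-Hochberg adjustment over all 9580 genes. Of the 7 members tested, 0 passed an adjusted p of 0.05. Over all genes tested 5 passed, or 0.0522%. At an unadjusted p under 0.05 there were 3 members, H2-Aa, H2-Ab1 and Cd74, all higher with picrotoxin, against 744 genes or 7.77% of the table, 350 higher and 394 lower. The adjusted count was also 0 in DESeq2 and in limma-voom. At an unadjusted p under 0.05 DESeq2 gave 1 member, H2-Aa, and 366 of all 9580 genes, and limma-voom gave 5 members and 742 genes. The edgeR count fell from 3 to 1 when any one of DMSO replicates 3, 4 and 6 or of picrotoxin replicates 2 and 3 was left out. The median log2 fold change of the members was 0.27 and that of all tested genes was -0.0060, with 6 members above 0 and 1 below.

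The classical chains form the molecule that is displayed. H2-Aa stood at 483, 444, 252, 301, 357 and 320 normalised molecules in DMSO replicates 1 to 6, where molecules were divided by a size factor per library. In picrotoxin replicates 1 to 6 it stood at 454, 586, 548, 336, 411 and 415. DMSO replicates 1 and 2 lay in the middle of the picrotoxin range and the other DMSO libraries at or below its lower end, so the groups overlapped. The log2 fold change was 0.36 (SE 0.13, 95% interval 0.095 to 0.627), which did not pass the adjusted threshold in edgeR (adjusted p = 0.426).

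H2-Ab1 was between 207 and 452 normalised molecules in DMSO libraries, with a median of 287, and between 300.0 and 445 in picrotoxin libraries, with a median of 396. DMSO replicates 3 and 4, at 207 and 224, were the lowest of the 12, and DMSO replicate 1 was the highest. Its log2 fold change was 0.31 (SE 0.14, 95% interval 0.035 to 0.594; edgeR adjusted p = 0.575). H2-Eb1 ranged from 153 to 361 in DMSO and from 268 to 399 in picrotoxin libraries, with medians of 263 and 293. The lowest library was again DMSO replicate 3, with DMSO replicates 4 and 6 also below every picrotoxin library, and the other 3 DMSO libraries overlapped with picrotoxin. Its log2 fold change was 0.27 (SE 0.14, 95% interval -0.019 to 0.558; edgeR adjusted p = 0.696). The α chain of I-E had no row under its own symbol, and the row for its pseudogene H2-Ea-ps was at 0 in all 12 libraries.

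Cd74 was the most abundant member by molecules. It stood at 1012, 806, 473, 556, 728 and 595 normalised molecules in DMSO replicates 1 to 6 and at 805, 939, 1068, 643, 869 and 734 in picrotoxin replicates 1 to 6. DMSO replicate 1 was close to the highest picrotoxin library, and DMSO replicates 3, 4 and 6 were below every picrotoxin library. The log2 fold change was 0.29 (SE 0.13, 95% interval 0.023 to 0.552; edgeR adjusted p = 0.619).

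H2-DMa and H2-DMb1 encode the α and β chains of the peptide exchanger. H2-DMa had medians of 84.6 normalised molecules in DMSO and 116 in picrotoxin libraries, with ranges of 73.7 to 135 and 89.7 to 144. DMSO libraries fell into a pair at 135, replicates 1 and 2, and the other 4 between 73.7 and 85.0, below every picrotoxin library. Its log2 fold change was 0.25 (SE 0.14, 95% interval -0.044 to 0.537; edgeR adjusted p = 0.750). H2-DMb1 had medians of 86.8 and 81.8, with ranges of 62.5 to 119 in DMSO and 48.2 to 123 in picrotoxin libraries, and picrotoxin replicate 4 was the lowest of the 12. Its log2 fold change was -0.05 (SE 0.17, 95% interval -0.402 to 0.306; edgeR adjusted p = 0.980). The sign turned when DMSO replicate 1 or 2, or picrotoxin replicate 4 or 5, was left out, with values of up to 0.07.

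For each molecule of H2-DMa there were 0.911 ± 0.127 (SD, n = 6) of H2-DMb1 in DMSO and 0.729 ± 0.187 (SD, n = 6) with picrotoxin. Picrotoxin replicates 4, 5 and 6, at 0.421, 0.731 and 0.619, and picrotoxin replicate 1, at 0.803, were below all DMSO libraries, whose lowest was 0.816, and picrotoxin replicates 2 and 3 lay at 0.853 and 0.946. This ratio was singled out after its values were seen and was not tested. H2-DMb2, a second DM β chain gene, was at 0 molecules in all 12 libraries, which in the smallest library allowed a share of up to 0.00149% for 3 counts. The H2-DMb1 and H2-DMb2 transcripts were 95.7% identical over 1081 bases, of 1404 and 1424, so the split of reads between them is uncertain. H2-DMa overlaps Brd2 on the other strand, and whether the counting used strand is not given in the sources used here.

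Ciita, the switch of the group, was the scarcest of the members with molecules, at 8 to 19 molecules per library. In DMSO libraries it was between 7.32 and 19.8 normalised molecules with a median of 9.20, and in picrotoxin libraries between 8.03 and 15.7 with a median of 9.95. DMSO replicate 1 was the highest of the 12 and the groups covered one another. The log2 fold change was 0.10 (SE 0.27, 95% interval -0.447 to 0.654; edgeR adjusted p = 0.967), and at this depth neither a fall by 0.4 nor a rise by 0.6 on that scale could be told from no difference. Without picrotoxin replicate 1 its sign turned, to -0.04.

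**Figure D1:**
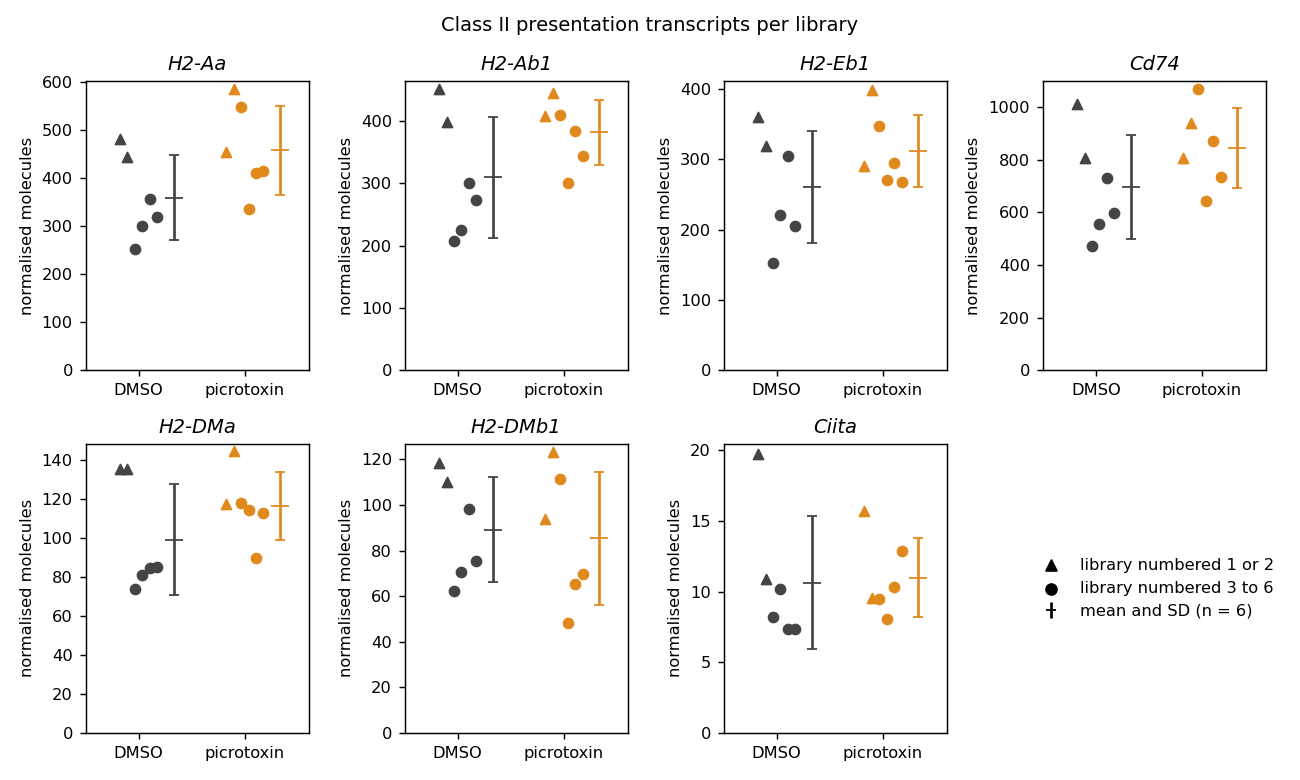
Normalised molecules (vertical axes, each from 0) of the 7 members with molecules in the 12 libraries, by treatment. Triangles are libraries numbered 1 or 2, circles those numbered 3 to 6, and the bar is the mean and SD over 6 libraries; the groups overlap for every member, and both DMSO triangles are the highest DMSO values for each.

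The classical chains, Cd74 and H2-DMa varied together between libraries. Over the 12 libraries log2 CPM of H2-Ab1 correlated with that of H2-Aa at Pearson's r = 0.953 (Spearman's rho 0.965), the smallest adjusted p of the 6 relations tested being 3e-05 for both H2-Aa and Cd74 (permutation test, two-sided, adjusted over 6). Its correlation with Cd74 was r = 0.953 (rho 0.944), with H2-Eb1 r = 0.914 (rho 0.888; adjusted permutation p = 0.0001) and with H2-DMa r = 0.866 (rho 0.937; adjusted permutation p = 0.000585). The relation was looser for H2-DMb1, at r = 0.682 (rho 0.755; adjusted permutation p = 0.0194), and for Ciita, at r = 0.591 (adjusted permutation p = 0.0423) with a rho of 0.580 whose adjusted permutation p was 0.0528. Without DMSO replicates 3 and 4, the libraries farthest from the median of H2-Ab1, r ran from 0.670 for H2-DMb1 to 0.924 for H2-Aa, with adjusted permutation p-values up to 0.036. Within the 8 libraries numbered 3 to 6 alone, 3 relations passed an adjusted exact permutation p of 0.05, those with Cd74 (r = 0.961), H2-Aa (r = 0.949) and H2-Eb1 (r = 0.885), while r was 0.755 for H2-DMa and 0.384 and 0.385 for H2-DMb1 and Ciita. The points share depth, library preparation and possibly mice, and the 2 treatments are pooled in them. The permutation p-values do not account for variation that many genes share. Over 3734 other genes the 95th percentile of r with the mean of the classical chains and Cd74 was 0.645. On that measure H2-DMa stood at 0.850, H2-DMb1 at 0.730 and Ciita, below that percentile, at 0.521.

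**Figure D2:**
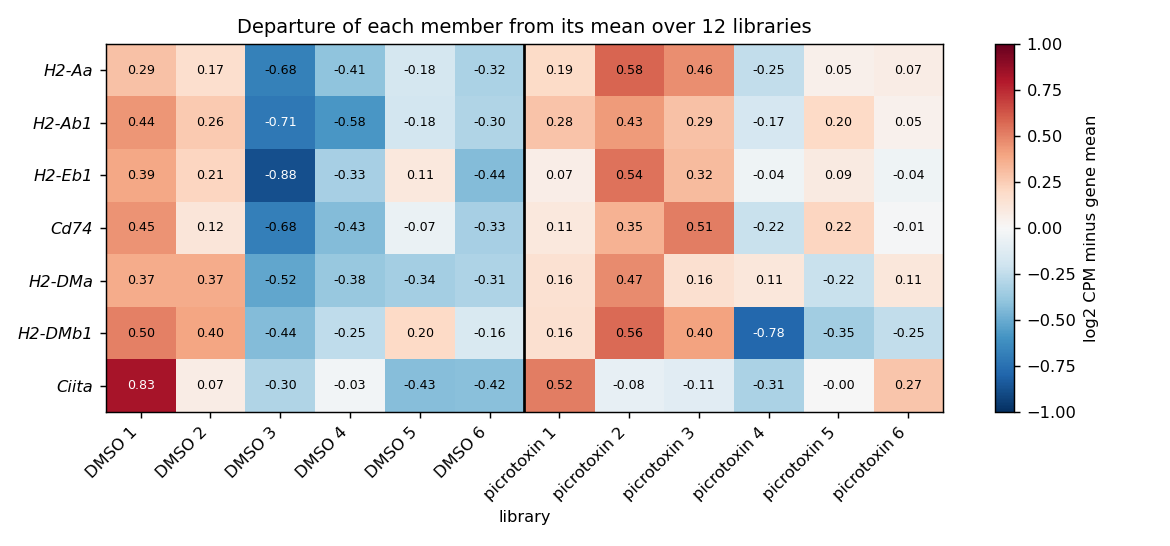
Departure of log2 CPM from each gene's own mean over 12 libraries (colour and printed value), members as rows and libraries as columns, the black line parting DMSO from picrotoxin. DMSO replicate 3 is low for all 7 members and DMSO replicate 1 high for all 7, whereas picrotoxin replicate 4 is lowest for H2-DMb1, at -0.78.

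The class II level of DMSO libraries differed by number. DMSO replicates 1 and 2 held 1.13% and 0.960% of their molecules on the members, and DMSO replicates 3 to 6 between 0.522% and 0.831%. The numbers 1 and 2 are not named as a batch by the labels, and the split was taken from earlier results of these data. Among libraries numbered 1 and 2 the mean share was 1.04% in DMSO and 1.02% in picrotoxin, and among those numbered 3 to 6 it was 0.668% ± 0.128 (SD, n = 4) and 0.889% ± 0.159 (SD, n = 4). With the split as a term in edgeR, 0 members passed the adjusted threshold and 5 had an unadjusted p under 0.05, as did 796 of all 9580 genes. Within the 8 libraries numbered 3 to 6, edgeR called 3 members, against 49 of 9666 genes or 0.507%. The members were H2-Ab1 (log2 fold change 0.53, SE 0.12, adjusted p = 0.0205), Cd74 (0.51, SE 0.12, adjusted p = 0.0418) and H2-Aa (0.49, SE 0.12, adjusted p = 0.0485). This subset leaves out DMSO replicates 1 and 2, the highest DMSO libraries for every tested member, along with picrotoxin replicates 1 and 2. Since the split came from these data, its calls are a description and no independent test of picrotoxin. None of these calls was left when DMSO replicate 3 or 4, or any of picrotoxin replicates 3, 5 and 6, was taken out, and 1, H2-Ab1, was left without DMSO replicate 6. Without DMSO replicate 5 edgeR called 4 members, and without picrotoxin replicate 4 it called 3. In the fit of all 8 libraries numbered 3 to 6, matrix genes were called lower with picrotoxin, Col3a1 at an adjusted p of 0.00171, Col1a1 at 0.0185 and Sparc at 0.0499. For Col1a1 the molecules lay almost wholly in DMSO replicate 5, which held 195, against at most 4 in any other library. Col3a1, at 233, and Sparc, at 123, were also highest in DMSO replicate 5. The part of the matrix genes in the class II values was not tested. H2-DMa, at 73.7 to 85.0 in DMSO and 89.7 to 118 in picrotoxin libraries numbered 3 to 6, did not overlap, as was the case with the picrotoxin libraries higher for 2.14% of all genes tested there.

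Whether the effect of picrotoxin differed between the numbers was tested as an interaction in edgeR over all genes. No member passed, the smallest adjusted p being 0.698, shared by Cd74 (difference of log2 fold changes 0.57, SE 0.20) and H2-Ab1 (0.52, SE 0.19). At an unadjusted p under 0.05 there were 3 members, with H2-DMa, against 555 genes or 5.79% of the table, and 0 genes passed after adjustment.

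**Figure D3:**
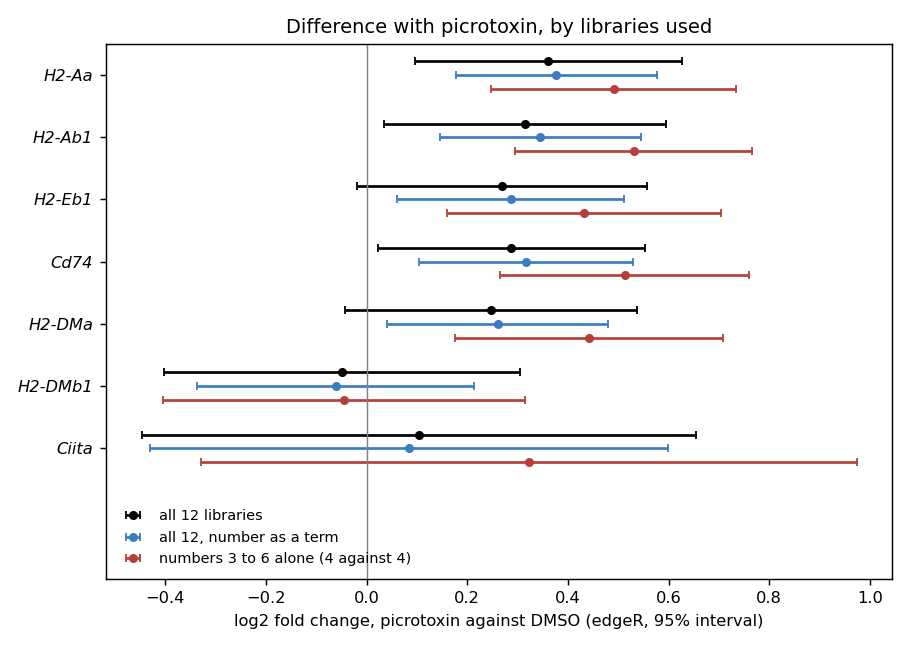
Log2 fold change of picrotoxin against DMSO with its 95% interval (horizontal axis) for the 7 tested members in edgeR, from all 12 libraries, from the same libraries with the number as a term, and from the 8 libraries numbered 3 to 6. Estimates for the classical chains, Cd74 and H2-DMa are above 0 in all 3 fits, from 0.25 to 0.53, while H2-DMb1 is near 0.

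Markers of other cells were read beside these values. The 9 macrophage markers were all present, with summed counts of 996 to 1651 molecules in DMSO and 1158 to 1546 in picrotoxin libraries. Their median log2 fold change was 0.18, with 8 of 9 above 0 (7 with library totals in place of TMM), 0 called and 2 at an unadjusted p under 0.05 in edgeR. Of the 6 B cell markers, Cd79a, Ms4a1 and Pax5 were at 0 in all libraries and the sum was at most 3 molecules. Of the 8 dendritic cell markers, Flt3 and Cd209a were at 0 and the sum was 3 to 11 molecules in DMSO and 4 to 13 in picrotoxin libraries. The 5 monocyte markers summed to 194 to 354 and 250 to 371 molecules, not scaled to depth. Of the 4 tested, 2 had estimates above 0 and 2 below, with a median log2 fold change of 0.11. In edgeR 0 were called and 1 had an unadjusted p under 0.05, higher with picrotoxin.

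Matrix and fibroblast transcripts were high in some DMSO libraries. The 12 markers, a list written after the data were seen, summed to 14, 15, 169, 26, 768 and 109 molecules in DMSO replicates 1 to 6 and to between 8 and 55 in picrotoxin libraries, and of the 9 tested edgeR called 0, with 7 at an unadjusted p under 0.05, all lower with picrotoxin. DMSO replicates 3, 5 and 6 were thus the highest in matrix transcripts. Their class II levels were not alike: DMSO replicate 3 had the lowest summed share, 0.522%, and DMSO replicate 6 had 0.689%, whereas DMSO replicate 5, with the most matrix molecules, had 0.831% and lay above the DMSO mean for Cd74, H2-Eb1 and H2-DMb1. DMSO replicate 4, with 26 matrix molecules, was lower in H2-Ab1 than DMSO replicates 5 and 6. Picrotoxin replicate 4 had the most matrix molecules of its group, 55, and the lowest summed share, 0.715%. Over the 12 libraries all 9 tested matrix markers had a negative Pearson's r with the mean log2 CPM of H2-Aa, H2-Ab1, H2-Eb1 and Cd74. It ran from -0.156 for Col1a1 to -0.656 for Dcn. Without DMSO replicates 3, 5 and 6 the log2 fold change was 0.16 for H2-Aa (SE 0.13), 0.09 for H2-Ab1 (SE 0.13), 0.09 for Cd74 (SE 0.12) and -0.01 for H2-DMa (SE 0.15), and edgeR gave no member an unadjusted p under 0.05. This leaves DMSO replicates 1, 2 and 4, of which 2 carry the numbers 1 and 2, against 2 of 6 picrotoxin libraries, so matrix transcripts and library number cannot be told apart in that fit. The part of these transcripts in the class II values was not tested.

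The other genes of the pathway were followed from a list of 35 symbols, of which 30 were in the table and 27 were tested. The ubiquitin ligases of class II turnover, March1 and March8, each listed under an older and a newer symbol, were not followed, since some rows of the table carry a date in place of a symbol. In edgeR 0 of the 27 passed the adjusted threshold, and the count was 4 at an unadjusted p under 0.05, as for 7.77% of all genes, all higher with picrotoxin, and 2 when DMSO replicate 3, DMSO replicate 6 or picrotoxin replicate 6 was left out. The median log2 fold change was 0.17, with 22 genes above 0 and 5 below. DESeq2 and limma-voom also called 0.

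Genes upstream of Ciita were represented by the interferon-γ receptor, its kinases and the factors below them. All 9 tested had estimates above 0, and 2 had an unadjusted p under 0.05. Irf8, a myeloid lineage factor of the interferon family, averaged 121 ± 27.3 (SD, n = 6) normalised molecules in DMSO and 157 ± 16.6 (SD, n = 6) with picrotoxin. Its log2 fold change was 0.39 (SE 0.13; edgeR adjusted p = 0.341). Jak2, a kinase of the receptor, averaged 16.9 ± 4.14 and 23.0 ± 4.18 with a log2 fold change of 0.45 (SE 0.19; edgeR adjusted p = 0.563). For Irf1, a factor induced by interferon-γ, it was 0.22 (SE 0.18; edgeR adjusted p = 0.827).

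Of 7 tested genes for endosomal processing, 6 had estimates above 0 (5 with library totals in place of TMM, 7 in limma-voom) and 2 an unadjusted p under 0.05. Ifi30, the lysosomal thiol reductase that opens disulphide bonds of antigens, averaged 172 ± 23.5 normalised molecules in DMSO and 210 ± 26.0 with picrotoxin. Its log2 fold change was 0.30 (SE 0.11; edgeR adjusted p = 0.408). Cst3, a cysteine protease inhibitor, averaged 334 ± 29.9 and 381 ± 31.3, with a log2 fold change of 0.20 (SE 0.09; edgeR adjusted p = 0.597). Ctss, the protease that trims the invariant chain, had a log2 fold change of 0.18 (SE 0.10; edgeR adjusted p = 0.735).

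Of the 7 factors that bind class II promoters, 5 were above 0 and none had an unadjusted p under 0.05. The smallest p-values belonged to Creb1, at a log2 fold change of 0.26 (SE 0.20; edgeR adjusted p = 0.815), and Nfyb, a subunit of NF-Y, at 0.39 (SE 0.32; edgeR adjusted p = 0.831). Costimulation was represented by Cd40, at 0.28 (SE 0.23; edgeR adjusted p = 0.829), and Cd86, at -0.22 (SE 0.23; edgeR adjusted p = 0.883). H2-Ob, a chain of the DM inhibitor DO, had at most 5 molecules in any library and H2-Oa, its partner, at most 2. Among libraries numbered 3 to 6, where 0.507% of all genes were called, edgeR called 2 pathway genes, Irf8 (log2 fold change 0.56, adjusted p = 0.0394) and Ifi30 (0.48, adjusted p = 0.0406). That split was taken from earlier results of these data, so these calls are a description. They were not followed with single libraries left out.

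The genes most like the class II group across libraries were found by correlating every gene with a mean of at least 10 normalised molecules with the mean log2 CPM of H2-Aa, H2-Ab1, H2-Eb1 and Cd74. Over 3734 such genes the median r was 0.07 and the 95th percentile 0.645. The highest was Ccl5, a chemokine, at r = 0.945, and among the next were Lst1 (0.944), Pld4 (0.924), Pla2g7 (0.912), Tnfaip3 (0.896), Cfb (0.878) and Ctss (0.866). Tnfaip3 restrains NF-κB signalling, and Cfb, a gene of the MHC region, encodes complement factor B. These values come from 12 libraries that share preparation and depth, and are a description without a test. Irf8 reached r = 0.726 and Spi1, the myeloid factor PU.1, r = 0.761.

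**Figure D4:**
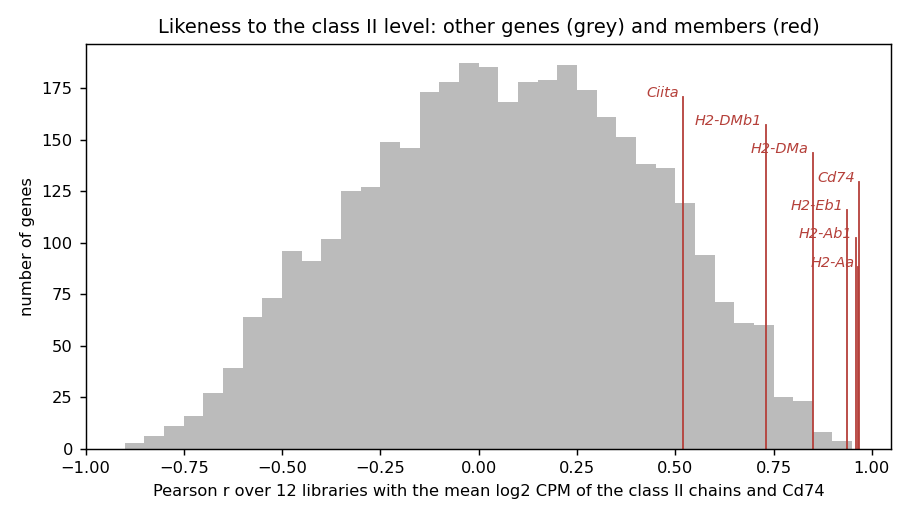
Number of genes (vertical axis) by Pearson's r over 12 libraries with the mean log2 CPM of the 3 classical chains and Cd74, in grey for 3734 other genes and as red lines for the members, each classical chain and Cd74 being set against the mean of the others. The classical chains and Cd74 lie between 0.938 and 0.968, H2-DMa at 0.850, H2-DMb1 at 0.730 and Ciita at 0.521.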

How the data were processed

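The authors deposited 1 table with counts (whole molecules) for each symbol. RNA, per the labels, was primed with an oligo-dT primer carrying a molecular barcode, and reads were mapped to mm10 with STAR. Spike-in rows were not used here. How reads with several matches were treated, and whether strand was used, is not given in the sources used here. Priming at the 3′ end and shared sequence can affect counts of near-identical genes.

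Libraries were grouped by the treatment label, with 6 in each group. Counts were tested with edgeR 4.0.16 (TMM, quasi-likelihood test) for the 9580 genes whose mean over libraries exceeded 1 normalised molecule (counts divided by DESeq2 size factors), with adjusted p-values over all of them and a threshold of 0.05. DESeq2 1.42.0 and limma 3.58.1 were alternatives. Standard errors were derived from the F statistic. Log2 CPM used a prior count of 2. Each test was tested on simulated libraries with known changes. Limits on counts of 0 use 3 counts and, like the error of a share, cover counting error only. Totals of 201697 to 309617 molecules set that precision.

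The members, gene lists and alternatives were chosen with earlier results of these data known. Named were all 8 members, pathway genes with an unadjusted p under 0.05 or among up to 2 with the smallest p of a list, and the 8 genes most like the members. Some listed genes are counted but not reported here by name. Irf1, Ctss, H2-Oa, Spi1, Col3a1, Col1a1 and Sparc were added after their values were seen. The matrix marker list, the interaction test, the fit without DMSO replicates 3, 5 and 6, and leaving out libraries among numbers 3 to 6 were also added then. Same-numbered libraries of the groups had correlations of their departures from -0.02 to 0.05, so the numbers were not taken as pairs. Gene positions are those of GENCODE release 21, and promoter sequences those of RefSeq.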

Additional observations from a re-analysis of the deposited data

Results flagged for a closer look

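In 42 tests, each over the 6 libraries of 1 treatment, for a library standing apart, chance gives about 1 in 20, and 2 were found. Ciita was at 19.8 normalised molecules in DMSO replicate 1, against 7.32 to 10.9 in the other 5 DMSO libraries. The ratio of H2-DMb1 to H2-DMa molecules was 1.17 in DMSO replicate 5, against 0.816 to 0.888 in the other 5. DMSO replicate 5 was also the library with the most matrix and fibroblast molecules, 768, and the part of these in the ratio was not tested.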

How the results depend on the processing

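Members called after adjustment were 0 under all alternatives but the 8 libraries numbered 3 to 6, where they were 3, or 0 to 4 with 1 of those 8 left out. Pathway genes called were 0 likewise but 2 in the 8 libraries numbered 3 to 6. That subset came from earlier results of these data and leaves out DMSO replicates 1 and 2, so its calls are a description. Members at an unadjusted p under 0.05, 3 in the reported fit, were 1 in DESeq2 and with library totals, 5 in limma-voom, without the filter on low counts, with the replicate block, with the number as a term and among numbers 3 to 6, and 1 to 5 when single libraries were left out. They were 1 when DMSO replicate 3, 4 or 6 or picrotoxin replicate 2 or 3 was missing, and 5 when DMSO replicate 1 or 2 was. Over all genes the unadjusted counts were 744 in the reported fit, 366 in DESeq2, 742 in limma-voom, 745 with library totals and 1024 of 13815 without the filter. With the replicate block they were 743, with the number as a term 796, among numbers 3 to 6 932 of 9666, and with single libraries left out 607 to 831. The replicate block changed no member's call (H2-Aa adjusted p = 0.111) and gave 43 calls over all genes, where the reported fit gave 5, DESeq2 2, limma-voom 3, library totals 13, no filter 81, the number as a term 27, numbers 3 to 6 49 and single libraries left out 0 to 25. The log2 fold change of H2-DMb1 ran from -0.19 to 0.0737 and that of Ciita from -0.0388 to 0.35 when single libraries were left out, turning sign. Values of H2-DMb1 above 0 were 0.0450 and 0.0245 without DMSO replicate 1 and 2, and 0.0737 and 0.0156 without picrotoxin replicate 4 and 5. The difference in summed share was -0.0282 percentage points among libraries numbered 1 and 2, 0.221 among those numbered 3 to 6 and 0.0836 to 0.205 with single libraries left out. Relations with H2-Ab1 past an adjusted p of 0.05 fell from 6 to 3 within libraries numbered 3 to 6, where H2-DMa had r = 0.755 over 8 libraries. The causes were not tested. Ciita, at 8 to 19 molecules per library, is limited most by depth.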
